A study of Mus musculus with 32 samples.

Results

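BAL17 is a B cell lymphoma line of BALB/c mice, and BAL17VII is a line derived from it. The comparison described here sets brains implanted with BAL17VII and taken at day 21 against brains implanted with BAL17 and taken at day 28, which are the last sampled times of the 2 lines. It holds 10 of the 32 arrays of the series, 5 brains in each group, chosen by line and day in the sample titles. Every one of these wild-type BALB/c mice had received 500000 lymphoma cells into the brain, and RNA came from whole brain, with frozen sections named in the extraction entry. Line and day change together in this comparison and cannot be told apart. For orientation, values are also given for 5 BAL17 brains of day 21, for 5 brains of mice injected with PBS and taken at day 28, and for 6 arrays of each cultured line. BAL17VII had no day 28 group and PBS no day 21 group. The sources used here do not say which brain levels the sections covered, how large the lymphomas were or if separate cultures lie behind the arrays of the lines, so p-values measure the spread between these samples.

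Lymphoma growing inside the brain adds transcripts of B cells and of dividing cells to a tissue made of neurons, oligodendrocytes, astrocytes, microglia and vessels, and it draws in immune cells. The level of a transcript in such a sample therefore depends on how much of each cell type the sample holds as well as on the cells' own expression. In bulk RNA, fewer cells of a type and less RNA per cell cannot be told apart. Brain regions are known by their own genes, such as the dopamine receptor gene Drd1 in striatum, and the pituitary, which hangs below the brain, is known by its hormone genes.

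Deposited intensities were turned to log2, and all levels and differences below are on that scale. Differences are BAL17VII day 21 minus BAL17 day 28 with limma's standard error (SE), and group means carry the standard deviation (SD). A probe set was called at an adjusted p under 0.05. Arrays of a group correlated at 0.979 to 0.9928 among BAL17VII brains and at 0.9893 to 0.9941 among BAL17 brains of day 28. Snap25, a synaptic protein gene and brain marker, lay between 12.99 and 13.08 in the 10 samples, whereas the means of other brain lists varied more, that of myelin from 8.57 to 9.84. Replicate 1 of the BAL17VII brains stood apart: its mean over 21 B lineage genes was 5.89, inside the range of PBS brains (5.85 to 6.02), and its mean over 24 mitosis genes was 5.78, also inside theirs (5.72 to 5.81). The other 4 BAL17VII brains lay at 6.75 to 7.25 and 7.11 to 7.65. The counts of calls and the leading genes are therefore given with that brain and, in a repeat on 9 arrays, without it.

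Promoter sequences are shown for 4 genes at the ends of the comparison, a pair of pituitary hormone genes and a pair of B cell genes. Each is the 250 bases before the annotated start, 5′ to 3′ on the gene's strand, from RefSeq on build GRCm38.p6. Capitals mark matches, on either strand, to ATGNATA, letters of the site of the pituitary factor Pit-1, searched in the hormone genes, or to ATTTGCAT, the octamer of many B cell promoters, searched in the B cell genes. Of 32851 promoters of that length, 7.92% held the former and 1.6% the latter. Prl, which encodes prolactin, lies on the plus strand and its window is chr13:27057320-27057569. Tshb, which encodes the beta chain of thyrotropin, lies on the minus strand at chr3:102782715-102782964. Rgs13, a regulator of G protein signalling of germinal centre B cells, lies on the minus strand at chr1:144177373-144177622. Slamf7, a surface receptor of the SLAM family, lies on the minus strand at chr1:171649000-171649249.
Prl: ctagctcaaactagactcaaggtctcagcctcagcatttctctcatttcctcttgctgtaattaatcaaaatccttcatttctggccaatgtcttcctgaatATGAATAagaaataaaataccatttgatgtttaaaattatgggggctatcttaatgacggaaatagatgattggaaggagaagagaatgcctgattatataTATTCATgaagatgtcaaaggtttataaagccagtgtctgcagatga
Tshb: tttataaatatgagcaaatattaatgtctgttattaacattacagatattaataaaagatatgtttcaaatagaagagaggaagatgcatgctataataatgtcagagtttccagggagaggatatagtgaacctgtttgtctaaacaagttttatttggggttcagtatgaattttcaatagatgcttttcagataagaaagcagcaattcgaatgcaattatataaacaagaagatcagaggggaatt
Rgs13: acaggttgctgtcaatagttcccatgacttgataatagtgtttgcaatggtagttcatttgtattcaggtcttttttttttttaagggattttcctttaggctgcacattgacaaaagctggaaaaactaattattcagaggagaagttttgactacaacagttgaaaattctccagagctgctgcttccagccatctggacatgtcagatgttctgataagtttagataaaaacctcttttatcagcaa
Slamf7: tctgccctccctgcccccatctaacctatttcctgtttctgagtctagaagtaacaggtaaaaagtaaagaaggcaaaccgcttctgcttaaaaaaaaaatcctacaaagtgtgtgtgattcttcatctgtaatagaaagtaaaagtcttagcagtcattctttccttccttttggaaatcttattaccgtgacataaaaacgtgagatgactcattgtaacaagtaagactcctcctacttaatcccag
The Prl window held 2 matches, which begin 148 and 47 bases before the start, and no match was found in the other windows.

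Most of the difference lay in transcripts of brain tissue, which were higher in BAL17VII brains of day 21, and in transcripts of lymphoma cells, which were lower there. Of 21789 probe sets with 1 gene symbol, 379 were called higher (1.74%) and 133 lower (0.61%), 512 in all (2.35%). Without BAL17VII replicate 1, 269 were called higher (1.23%) and 112 lower (0.514%), 381 in all (1.75%), and 330 probe sets were called in the same direction both times. Differences of at least 1 were seen for 25 of the higher calls (0.115% of all probe sets) and 13 of the lower calls (0.0597%). Values of the groups did not overlap for 1154 probe sets (5.3%), with BAL17VII brains higher in 743 (3.41%) and lower in 411 (1.89%). The SD was larger among BAL17VII brains for 14680 probe sets, 67.4% of all.

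Sorting the probe sets by arrays outside the comparison, a choice made after the results were seen, showed where these transcripts are high. Of 2119 probe sets at least 1 log2 unit higher in both cultured lines than in PBS brains, 91 were called lower (4.29%) and 1 higher, with a median difference of -0.17. Of 2841 probe sets at least 1 unit higher in PBS brains than in both cultured lines, 283 were called higher (9.96%) and 2 lower, with a median of 0.2. Without replicate 1 these medians were -0.14 and 0.15, with 88 called lower and 197 called higher. The remaining 16829 probe sets gave 95 higher and 40 lower calls. The number of calls hung on single brains. It was 118 without BAL17VII replicate 3 and 304 without replicate 5, but 1034 without replicate 2 and 831 without replicate 4. Leaving out replicate 3, 4 or 5 of the BAL17 day 28 brains left 70, 70 and 111 calls.

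**Figure D1:**
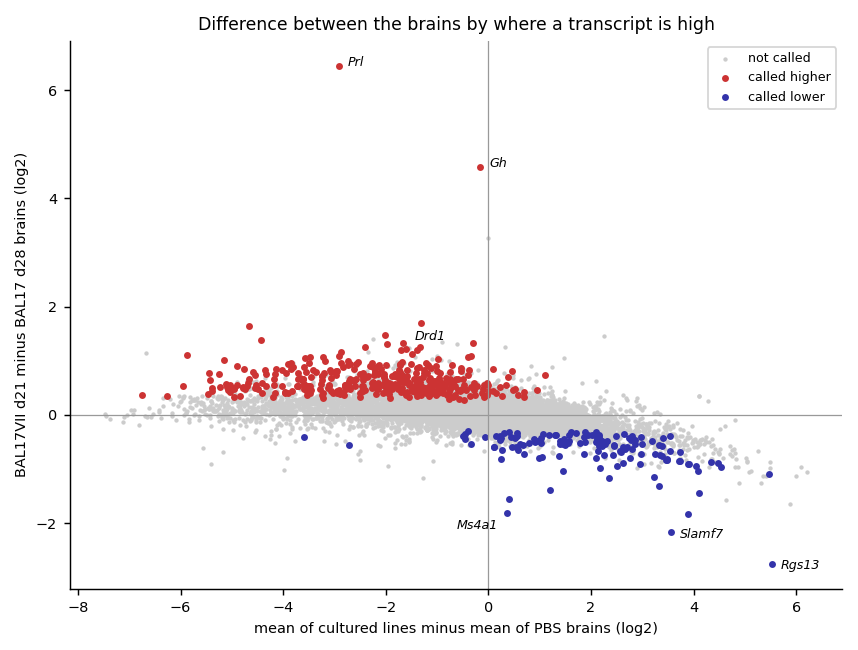
Each point is 1 of 21789 probe sets, with the mean of the cultured lines minus the mean of PBS brains on the horizontal axis and BAL17VII day 21 minus BAL17 day 28 brains on the vertical axis, both in log2 units. The 379 probe sets called higher (red) lie mostly to the left, where PBS brains are higher, and the 133 called lower (blue) mostly to the right; Prl, Gh, Drd1, Rgs13, Slamf7 and Ms4a1 are labelled.

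Among B cell and lymphoma genes, Rgs13 had the largest drop. Its level was 4.98, 6.82, 6.44, 5.26 and 5.45 in the BAL17VII brains and 8.84, 8.43, 8.6, 8.46 and 8.36 in the BAL17 brains of day 28. The groups did not overlap, and 2 of the BAL17VII brains lay within the PBS range of 4.16 to 5.32. The difference was -2.75 ± 0.28 (SE), 6.72-fold lower, with an adjusted p of 0.000603, and -2.55 ± 0.26 without replicate 1. Rgs13 was also lower in the cultured BAL17VII line, at 8.98 ± 0.13 (SD, n = 6) against 11.35 ± 0.07 in BAL17. Slamf7 was at 5.01, 6.54, 5.95, 4.9 and 5.78 against 7.76, 7.82, 7.6, 7.98 and 7.87, without overlap. It fell by 2.17 ± 0.24 (adjusted p 0.0014), with a difference of -2.02 ± 0.23 without replicate 1, and the cultured lines had 8.06 for BAL17VII and 9.44 for BAL17. Both calls held without each of the 10 arrays in turn.

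Of the 12 largest drops without overlap, Cd55, which encodes the complement regulator decay accelerating factor, had the smallest adjusted p, at 4.64e-05. Its level was 7.43, 7.13, 7.15, 7.03 and 7.28 in BAL17VII brains and 8.78, 8.37, 8.71, 8.66 and 8.42 in BAL17 brains. All BAL17VII brains lay close together and below all BAL17 brains, and the difference of -1.38 ± 0.1 became -1.44 ± 0.1 without replicate 1. Cultured BAL17 cells had 8.48, cultured BAL17VII cells 7.52 and PBS brains 6.81, so only cultured BAL17 was at least 1 unit above PBS brains. Casp4, an inflammatory caspase, was at 5.18, 7, 6.88, 5.84 and 6.77 against 8.34, 7.94, 8.22, 7.97 and 8.32. The drop was 3.54-fold (-1.82 ± 0.28, adjusted p 0.01), although cultured BAL17VII cells, at 9.24, were close to cultured BAL17 cells, at 9.83. Without replicate 1 the drop was 2.9-fold (-1.53 ± 0.19, adjusted p 0.00275). Map3k15, a kinase of the MAP kinase cascade, fell by 1.43 ± 0.2 (adjusted p 0.00654) and Baiap2l1, an adaptor of the actin cytoskeleton, by 1.17 ± 0.12 (adjusted p 0.000453). The other Baiap2l1 probe sets differed by -0.04 and -0.03, so that gene's change rests on 1 of 3 probe sets. Cytip, which binds cytohesin in lymphocytes, fell by 1.04 ± 0.17 (adjusted p 0.0106), and Slpi, a secreted protease inhibitor, by 0.98 ± 0.13 (adjusted p 0.00325).

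A further pair of genes fell although neither cultured line had a high level. Ms4a1, which encodes the B cell antigen CD20, was at 4.52, 6.85, 6.57, 6.28 and 6.56 in BAL17VII brains and at 8.74, 7.48, 8.08, 7.67 and 7.89 in BAL17 brains. The cultured lines had 5.3 for BAL17VII and 5.31 for BAL17, near the 4.95 of PBS brains, so in both implanted groups the gene stood above its cultured level except in BAL17VII replicate 1. The difference was -1.81 ± 0.36 (adjusted p 0.0236), and -1.41 ± 0.2 (adjusted p 0.00697) without that brain. Atp6v0d2, a subunit of the vacuolar proton pump, was at 4.07, 4.44, 3.98, 4.12 and 4.4 against 6.19, 5.89, 5.84, 5.22 and 5.65. BAL17VII brains were near the PBS mean of 4.24 while all BAL17 brains were above it, a difference of -1.56 ± 0.15 (adjusted p 0.000453), and -1.52 ± 0.16 without replicate 1. BAL17 brains of day 21 had 5.0 for Atp6v0d2 and 7.26 for Ms4a1.

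Clec2i, a lectin-like gene, ran opposite to the cultured lines: it fell by 1.32 ± 0.26 in the brains (adjusted p 0.0236) while cultured BAL17VII cells had 10.19 and cultured BAL17 cells 7.47. Prelid2 fell by 1.15 ± 0.23 (adjusted p 0.0243) and Ddx43, an RNA helicase gene, by 1.1 ± 0.21 (adjusted p 0.0216). The 12 largest drops were all called without replicate 1 too, and 8 of them without each array in turn. The exceptions were Ms4a1, Clec2i, Prelid2 and Ddx43, which were not called without BAL17 replicate 3, 4 or 5, nor, for Clec2i and Prelid2, without BAL17VII replicate 3. Their highest adjusted p values were 0.0707, 0.0689, 0.0726 and 0.0662. With robust moderation Ms4a1 (adjusted p 0.0725), Clec2i (0.0585) and Prelid2 (0.05 after rounding) were not called either.

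**Figure D2:**
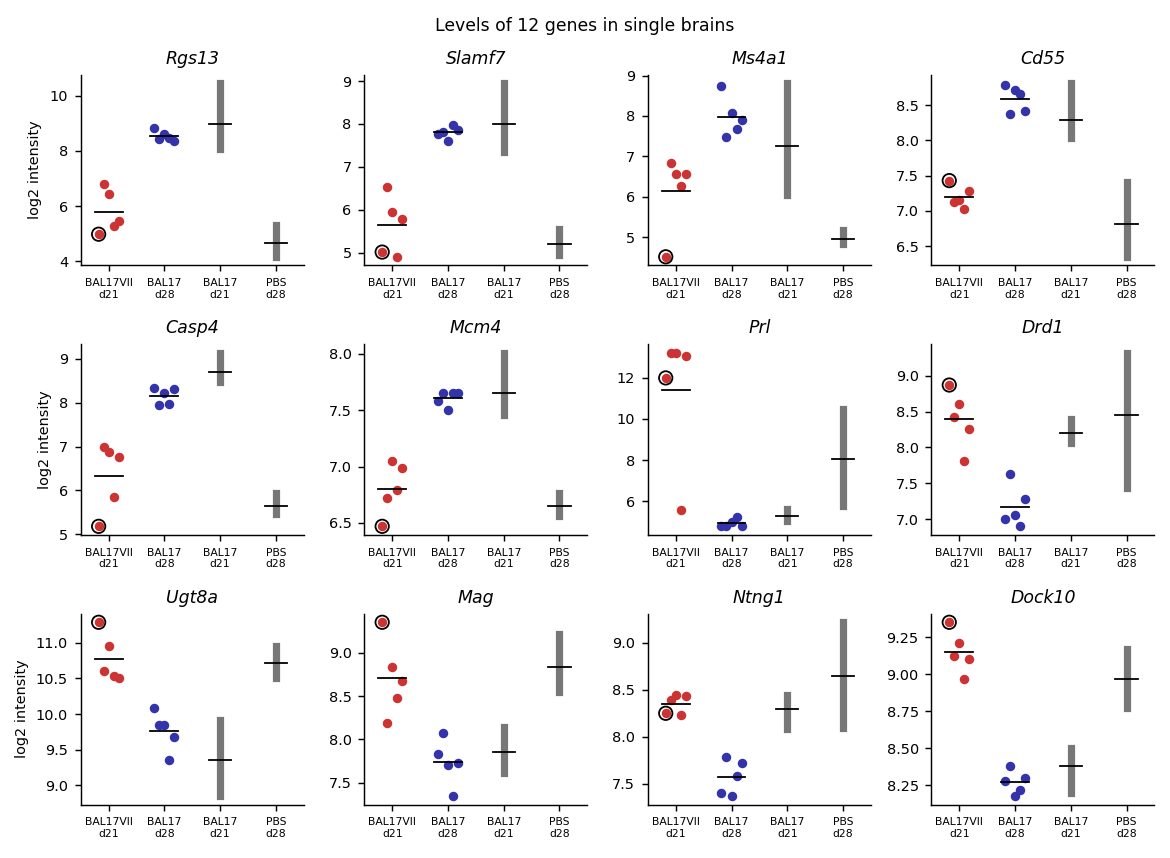
Log2 intensity of 12 genes in single brains: points are the 5 BAL17VII brains of day 21 (red, replicate 1 circled) and the 5 BAL17 brains of day 28 (blue), grey bars span the lowest to the highest of 5 BAL17 brains of day 21 and 5 PBS brains, and black lines are means. For Rgs13, Slamf7, Ms4a1, Cd55, Casp4 and Mcm4 every red point lies below every blue point. For Prl, Drd1, Ugt8a, Mag, Ntng1 and Dock10 every red point lies above every blue point.

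Across the B lineage list, genes of B cell identity, 5 of 21 were called lower and none higher, with a median of -0.73. Over all 19938 genes on the array, 0.597% were called lower and 1.76% higher, with a median of 0.006. The called genes were Ms4a1, Cd22, Cd37, Fcmr and Spib, and without replicate 1 the list gave 7, among them Pou2af1 and Ikzf3, with a median of -0.49. Spib, a transcription factor of B cells, fell by 0.75 ± 0.11 (adjusted p 0.00674). Fcmr, an Fc receptor for IgM, fell by 0.65 ± 0.15 (adjusted p 0.0369). Pou2af1, a coactivator of octamer-binding factors, differed by -0.87 ± 0.23 (adjusted p 0.0664) and, without replicate 1, fell by 0.58 ± 0.1 (adjusted p 0.0133). The antigen receptor chain Cd79b was not called: it was at 6.32, 8.91, 8.54, 7.92 and 8.54 against 9.29, 8.98, 9.03, 8.85 and 8.94, with the first value at the PBS level. Its difference was -0.97 ± 0.36 (adjusted p 0.154), and -0.54 ± 0.16 (adjusted p 0.115) without replicate 1. B cell receptor signalling had no call among 19 genes and a median of -0.17. Without replicate 1 its kinase Btk was called, at -0.48 ± 0.1 (adjusted p 0.0362). Only 1 B lineage gene was called without BAL17 replicate 3, 4 or 5, and 2 or 3 without BAL17 replicate 1 or 2 or BAL17VII replicate 3 or 5, but 8 without BAL17VII replicate 2. Fcmr was not called without BAL17VII replicate 3 or any single BAL17 brain, with adjusted p values up to 0.0908.

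Genes of dividing cells all had negative differences but few passed the test. Of 24 mitosis genes none had a positive difference, the median was -0.64, and Ndc80, a kinetochore gene, was called at -0.86 ± 0.17 (adjusted p 0.0225). The list mean per brain was 5.78, 7.65, 7.38, 7.11 and 7.43 in BAL17VII brains and 7.84, 7.7, 7.73, 7.71 and 7.73 in BAL17 brains. The groups did not overlap, and apart from replicate 1 the gap was small. Without replicate 1 the median was -0.3, and Bub1b, Kif11, Ndc80 and Ttk, genes of the spindle and its checkpoint, were called. Mki67, which encodes the proliferation antigen Ki-67, was not called either way, at -0.99 ± 0.44 (adjusted p 0.229) and -0.43 ± 0.12 (adjusted p 0.096). The 26 DNA replication genes likewise had no positive difference and a median of -0.3, and 1 was called, Mcm4 of the replicative helicase. Mcm4 was at 6.47, 6.72, 7.05, 6.79 and 6.99 against 7.58, 7.65, 7.5, 7.65 and 7.65, with no overlap and a difference of -0.8 ± 0.1 (adjusted p 0.00344), or -0.72 ± 0.09 without replicate 1. It differed between the cultured lines too, at 8.77 in BAL17VII and 10.03 in BAL17. Without BAL17 replicate 3, 4 or 5 no mitosis gene was called, while Mcm4 was called without each array in turn. Without BAL17VII replicate 2, 3 mitosis genes were called.

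Of 22 genes of the Myc and ribosome biogenesis list, 5 were called lower, with a median of -0.29. They were the nucleolar genes Nolc1 and Nop2 and the nucleotide synthesis genes Cad, Gart and Ppat. Their changes were small, such as -0.44 ± 0.09 for Nolc1 (adjusted p 0.0264) and -0.32 ± 0.07 for Ppat (adjusted p 0.0301). Myc itself was at 7.12, 9.94, 9.37, 9.1 and 9.57 against 9.86, 10.15, 10.16, 10.35 and 10.2, which overlapped. It was called only without replicate 1, at -0.65 ± 0.15 (adjusted p 0.0413). None of the list was called without BAL17VII replicate 3 or without BAL17 replicate 2, 3, 4 or 5, and 1 without BAL17VII replicate 5. With each array centred on its median 1 was called, and Ppat, Nop2 and Gart were not (adjusted p 0.0573, 0.0646 and 0.0646). Ppat was not called with all 20 brains in the fit either (adjusted p 0.0612). In the germinal centre list Rgs13 was the single call of 13 genes, with a median of -0.09.

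The pituitary hormone genes Prl and Gh had the largest rises. Prl was at 11.98, 13.2, 13.2, 5.57 and 13.02 in BAL17VII brains and 4.81, 4.79, 5, 5.26 and 4.83 in BAL17 brains of day 28. Every BAL17VII brain but replicate 4 was far above the other group, and PBS brains ranged from 5.79 to 10.46. The difference was 6.45 ± 1.12 (adjusted p 0.0147), and 6.31 ± 1.19 (adjusted p 0.0222) without replicate 1. Gh, which encodes growth hormone, was at 8.53, 12.33, 12.06, 5.49 and 11.7 against 5.48, 5.41, 5.43, 5.45 and 5.46, a rise of 4.58 ± 1.0 (adjusted p 0.033), and of 4.95 ± 1.03 (adjusted p 0.0331) without replicate 1. Here replicate 4 stood level with the BAL17 brains. Tshb rose by 1.32 ± 0.31 (adjusted p 0.0414), and by 1.52 ± 0.29 without replicate 1. Cga, the common alpha chain of the glycoprotein hormones, differed by 3.27 ± 0.92 (adjusted p 0.0752) and was called without replicate 1, at 3.89 ± 0.86 (adjusted p 0.0384). Pomc, the precursor of corticotropin, differed by 0.41 ± 0.11 (adjusted p 0.0612).

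In all, 3 of 12 pituitary genes were called higher, with a median of 0.32, and 4 without replicate 1. The list mean was 7.1, 8.43, 8.13, 6.19 and 8.01 in BAL17VII brains, 6.08 to 6.19 in BAL17 brains of day 28, 6.11 to 6.29 in BAL17 brains of day 21 and 6.22 to 6.78 in PBS brains. It was high in 4 BAL17VII brains, and replicate 4 matched the BAL17 brains. Gh and Tshb were not called without BAL17VII replicate 3 or 5 or without any single BAL17 brain, with adjusted p values up to 0.0885 and 0.11, while Prl was called without each array in turn. With robust moderation of the spread no pituitary gene was called, and the adjusted p values were 0.063 for Prl, 0.11 for Gh and 0.0987 for Tshb. Whether pituitary tissue was taken with some brains is not given in the sources used here. Replicate 4, at the low pituitary level, had a myelin list mean of 9.2, above the 8.87 of the highest BAL17 brain of day 28, and a striatum list mean of 7.97, just under the 8.01 of the highest.

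Genes of the striatum, the region of dopamine-receiving neurons, rose as the largest group of brain genes. Of 16, 13 were called higher and none lower, with a median of 0.89. Without replicate 1 there were 10, with a median of 0.79. Drd1 was at 8.87, 8.42, 8.61, 7.81 and 8.25 against 7, 7.63, 7.06, 6.9 and 7.28, with no overlap. It rose by 1.22 ± 0.18 (adjusted p 0.00782), and by 1.1 ± 0.17 (adjusted p 0.00936) without replicate 1. Penk, which encodes the opioid precursor proenkephalin, rose by 1.11 ± 0.18 (adjusted p 0.0129). Adcy5, an adenylyl cyclase, rose by 0.89 ± 0.14 (adjusted p 0.01) and Rgs9, a regulator of dopamine receptor signalling, by 1.25 ± 0.23 (adjusted p 0.0174). BAL17 brains of day 28 were the low group. The list mean was 7.97 to 8.78 in BAL17VII brains, 7.4 to 8.01 in BAL17 brains of day 28, 8.27 to 8.51 in BAL17 brains of day 21 and 7.81 to 8.94 in PBS brains. The lowest PBS brain was thus below the highest BAL17 brain of day 28. The count fell to 3 without BAL17VII replicate 3 or BAL17 replicate 3 or 4 and to 6 without BAL17 replicate 5. Rgs9 was among those lost, with adjusted p values up to 0.0613, while Drd1, Penk and Adcy5 were called without each array in turn.

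Among called rises whose groups did not overlap, several of the 12 largest are also known from neurons of the basal ganglia and their neighbours. Called rises of similar or larger size that did overlap, such as those of Rgs9, Penk, Slitrk6 and Fabp7, are given with their lists. Oprk1, the kappa opioid receptor gene, was at 7.24, 6.58, 6.63, 5.98 and 5.97 against 4.83, 5.58, 5.21, 5.16 and 5.34, and rose by 1.26 ± 0.21 (adjusted p 0.0137). Htr2c, a serotonin receptor gene, rose by 1.07 ± 0.16 (adjusted p 0.00867), with all BAL17VII brains above all BAL17 brains. Prkch, a protein kinase C gene, rose by 1.13 ± 0.18 (adjusted p 0.0106), with 0.31 for its other probe set. Polr3e, a subunit of RNA polymerase III, rose by 1.07 ± 0.16 (adjusted p 0.00953), but its other probe set differed by 0.04. Adamts9, a secreted protease gene, rose by 1.2 ± 0.22 (adjusted p 0.0174), but its other probe sets differed by 0.90, 0.26, 0.41, -0.07 and 0.37. The imprinted gene Peg10 rose by 1.16 ± 0.23 (adjusted p 0.0228), Resp18, a gene of endocrine and neuroendocrine cells, by 1.09 ± 0.23 (adjusted p 0.0311) and Sv2c, a synaptic vesicle gene, by 1.07 ± 0.23 (adjusted p 0.0311). Of these 12 rises without overlap, 6 were called without each array in turn, and Gh, Tshb, Adamts9, Peg10, Resp18 and Sv2c were not. Adamts9 lost its call without BAL17VII replicate 3 or BAL17 replicate 3 or 4, and Peg10, Resp18 and Sv2c also without BAL17 replicate 5, with adjusted p values up to 0.0607, 0.0689, 0.0883 and 0.0921. Sv2c lost it without BAL17 replicate 1 as well. With robust moderation Resp18 and Sv2c had adjusted p values of 0.0602 and 0.0589.

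Other regions moved less or not at all by the test. Of 14 thalamus genes, 4 were called higher, with a median of 0.35, and 3 without replicate 1, with a median of 0.45. The thalamus list mean was 7.73 in BAL17VII brains, 7.68 in BAL17 brains of day 21 and 7.98 in PBS brains. BAL17 brains of day 28 were the low group, at 7.31 (7.12 to 7.64). Ntng1, which encodes the axon guidance protein netrin-G1, was at 8.25, 8.39, 8.44, 8.23 and 8.43 against 7.4, 7.78, 7.37, 7.58 and 7.72. All BAL17VII values were higher, by 0.78 ± 0.1 (adjusted p 0.00277), though the other Ntng1 probe set differed by 0.06. Slitrk6 rose by 1.48 ± 0.32 (adjusted p 0.0318), Plekhg1 by 0.58 ± 0.13 (adjusted p 0.04) and Calb2, which encodes calretinin, by 0.66 ± 0.16 (adjusted p 0.0424). Without BAL17VII replicate 3 or 5, or BAL17 replicate 1, 3, 4 or 5, 1 thalamus gene was called, and these 3 lost their calls, at adjusted p values up to 0.0933, 0.111 and 0.115; Calb2 also without BAL17VII replicate 1 (adjusted p 0.0695). Slitrk6 was not called under robust moderation (adjusted p 0.0842), nor Plekhg1 with all 20 brains (0.0803) or all 32 arrays (0.0807) in the fit. Without BAL17VII replicate 4 there were 7 calls. None of 17 cerebellum genes was called, although the median was -0.43. The cerebellum list mean was 7.51, 7.74, 7.69, 8.72 and 8.45 in BAL17VII brains against 8.25 to 8.56, so that 3 BAL17VII brains were low and 2 were level with or above the BAL17 group. The PBS range was 8.21 to 8.82. Cortex and hippocampus genes had no call among 18 and a median of -0.12, and hypothalamus genes had none among 18 and a median of 0.12. The BAL17VII brains differed among themselves here too. The cortex and hippocampus list mean was 8.28, 8.14, 8.23, 8.61 and 8.52 against 8.46 to 8.57. That of the hypothalamus list was 7.24, 6.82, 6.92, 6.46 and 6.57 against 6.46 to 6.56. Of 12 genes of the dopaminergic midbrain, the receptor tyrosine kinase gene Ret was called, at 0.65 ± 0.16 (adjusted p 0.0446). Its call was lost without BAL17VII replicate 1 (adjusted p 0.0574), 2 or 3 or any single BAL17 brain, with adjusted p values up to 0.11. The midbrain list mean was 7.41, 6.87, 7.04, 6.39 and 6.56 in BAL17VII brains against 6.34 to 6.58. All samples are labelled whole brain, and which brain levels each RNA sample held was not tested.

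**Figure D3:**
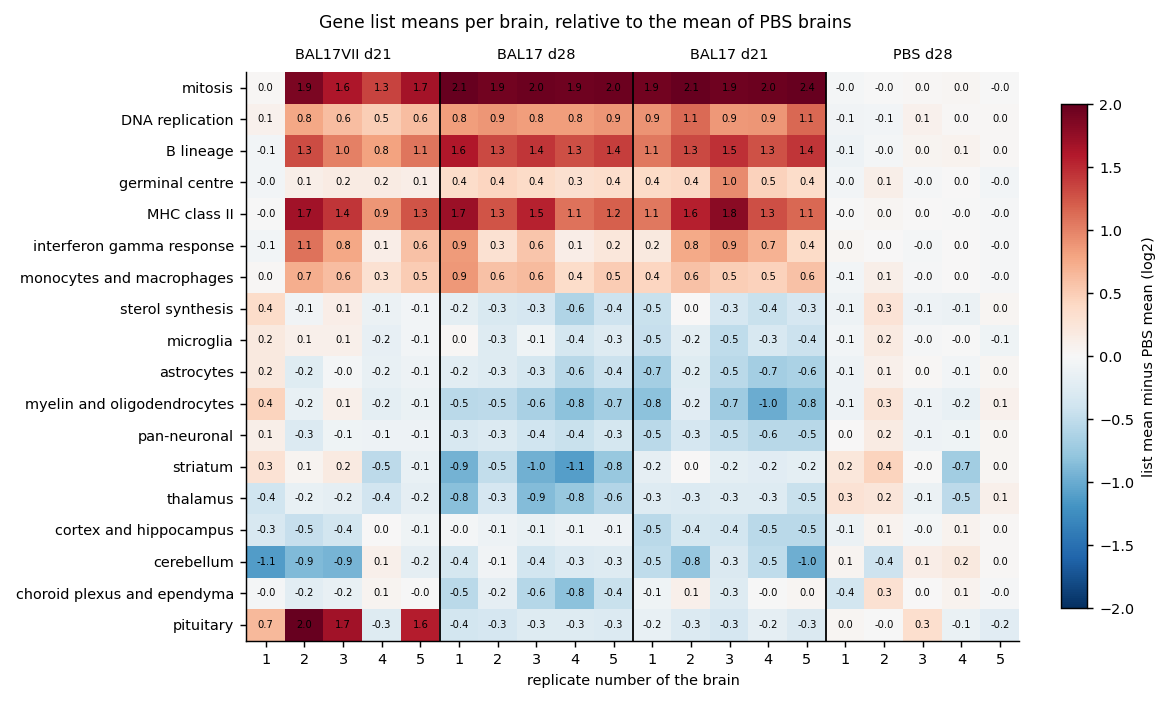
Mean log2 intensity of 18 gene lists in each of 20 brains, minus the mean of the 5 PBS brains, with brains as columns and lists as rows (red above PBS, blue below; colour ends at 2 units). BAL17VII replicate 1 is at the PBS level for mitosis and B lineage, 4 of 5 BAL17VII brains are high for the pituitary list, and the striatum list is low in BAL17 brains of day 28 but not of day 21.

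Myelin genes, made by oligodendrocytes that wrap axons, were higher in BAL17VII brains. Of 17, 12 were called higher and none lower, all 17 differences were positive and the median was 0.76. Without replicate 1, 11 were called and the median was 0.63. Ugt8a, an enzyme of galactocerebroside synthesis, was at 11.29, 10.61, 10.95, 10.54 and 10.51 against 10.09, 9.84, 9.84, 9.36 and 9.68. No values overlapped, and the rise was 1.02 ± 0.16 (adjusted p 0.01), or 0.89 ± 0.14 without replicate 1. Mag, which encodes the myelin-associated glycoprotein, was at 9.35, 8.19, 8.83, 8.48 and 8.67 against 7.83, 8.07, 7.71, 7.35 and 7.73 and rose by 0.96 ± 0.18 (adjusted p 0.0216). Trf, the transferrin gene, rose by 0.86 ± 0.14 (adjusted p 0.0129), Cryab, a small heat shock protein gene, by 0.88 ± 0.13 (adjusted p 0.00953) and Mog, a myelin surface glycoprotein gene, by 0.76 ± 0.13 (adjusted p 0.0147). The list mean was 9.2 to 9.84 in BAL17VII brains, close to the 9.24 to 9.65 of PBS brains. It was 8.57 to 8.87 in BAL17 brains of day 28 and 8.4 to 9.16 in those of day 21. Without BAL17 replicate 3 or 4 the list had 3 calls, without BAL17VII replicate 3 it had 4 and without BAL17 replicate 5 it had 5. Mag was not called then, nor without BAL17VII replicate 3 or BAL17 replicate 5 (adjusted p up to 0.0659), and Mog not without BAL17 replicate 3 or 4 (adjusted p up to 0.0543).

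Neuronal genes of all regions rose in part. Of 19, 6 were called higher, with a median of 0.22, and 3 without replicate 1. Nefm and Nefl, which encode neurofilament chains, rose by 0.54 ± 0.12 (adjusted p 0.0311) and 0.5 ± 0.11 (adjusted p 0.0347), and Uchl1, a neuronal ubiquitin hydrolase gene, by 0.68 ± 0.15 (adjusted p 0.0373). Snap25 differed by 0.01 ± 0.07. None of the neuronal list was called without BAL17VII replicate 3 or BAL17 replicate 3, 4 or 5, 2 were without BAL17VII replicate 5 and 3 without BAL17 replicate 1 or 2. The calls of Nefm, Nefl and Uchl1 were also lost when all 32 arrays shared the fit, at adjusted p values of 0.0723, 0.243 and 0.0517. Of 16 genes for glutamate and GABA receptors, 3 were called higher both with and without replicate 1, Grm5, Gabra2 and Gabra4, with a list median of 0.05. Grm5, a metabotropic glutamate receptor gene, rose by 0.4 ± 0.08 (adjusted p 0.0216) and Gabra2 by 0.58 ± 0.11 (adjusted p 0.0229). No gene of that list was called without BAL17VII replicate 3 or BAL17 replicate 3 or 4, and 1 without BAL17 replicate 5. Gabra2 was not called then either, with adjusted p values up to 0.0726. Gabra4 was not called with all 20 brains (adjusted p 0.0729), with all 32 arrays (0.123) or after quantile normalization (0.0557).

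Glia and choroid plexus gave fewer calls. Of 15 astrocyte genes 2 were called higher, the water channel gene Aqp4 at 0.65 ± 0.15 (adjusted p 0.0414) and the fatty acid binding protein gene Fabp7 at 1.39 ± 0.34 (adjusted p 0.0471), with a list median of 0.16. Of 10 genes of oligodendrocyte precursors 2 were called, C1ql1 and Ptprz1, with a median of 0.31. Neither list had a call without BAL17VII replicate 1, 3 or 5 or BAL17 replicate 2, 3, 4 or 5. Fabp7 also lost its call under robust moderation (adjusted p 0.114), with group weights (0.0654) and after quantile normalization (0.0552), and Ptprz1 with all 32 arrays in the fit (0.0778) and after quantile normalization (0.0527). Of 20 genes of reactive gliosis 2 were called higher, Gfap, the astrocyte filament gene, at 0.56 ± 0.13 (adjusted p 0.041), and Osmr, the oncostatin M receptor gene, at 0.45 ± 0.08 (adjusted p 0.0147). Osmr was at 7.14, 7.12, 7.23, 7.26 and 7.06 against 6.79, 6.68, 6.81, 6.73 and 6.56, with no overlap and with BAL17 brains near the PBS mean of 6.65. Without replicate 1, Osmr was called again (adjusted p 0.0202), Cd44, an adhesion receptor gene, was called at 0.55 ± 0.12 (adjusted p 0.0337), and Gfap was not (adjusted p 0.0621). Without BAL17 replicate 4 none of the gliosis list was called, and 1 was without BAL17VII replicate 3 or 5 or BAL17 replicate 1, 3 or 5. With all 20 brains in the fit Osmr and Gfap had adjusted p values of 0.0782 and 0.0693, and with all 32 arrays 0.114 and 0.0688.

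Of 15 genes of choroid plexus and ependyma 5 were called higher, with a median of 0.42, and 2 without replicate 1, Kl and Sostdc1. The mean of this list was 6.89 in BAL17VII brains, 6.92 in BAL17 brains of day 21 and 6.96 in PBS brains. BAL17 brains of day 28 were the low group, at 6.45 (6.14 to 6.78). Kl, which encodes klotho, rose by 0.68 ± 0.13 (adjusted p 0.0216), and Sostdc1, a secreted antagonist of BMP and Wnt signals, by 0.72 ± 0.16 (adjusted p 0.0347), a call lost with all 20 brains in the fit (adjusted p 0.0614). Ttr, the abundant transthyretin gene of the choroid plexus, was not called, at 1.14 ± 0.41 (adjusted p 0.14). It was at 12.73, 12.69, 12.69, 12.97 and 12.95 against 12.04, 12.73, 11.73, 9.66 and 12.17, and the low value of BAL17 replicate 4 carried much of the spread. Of 17 sterol synthesis genes 5 were called higher, with a median of 0.44, and 1 without replicate 1, Nsdhl, at 0.6 ± 0.13 (adjusted p 0.0395). Hmgcs1, an early enzyme of the pathway, rose by 0.68 ± 0.16 (adjusted p 0.0403), though cultured BAL17VII cells had less of it (7.89) than cultured BAL17 cells (9.67). Its mean was 9.64 in BAL17VII brains, near the 9.61 of PBS brains, and 8.96 in BAL17 brains of day 28. The sterol list mean was likewise 8.07 to 8.56 in BAL17VII brains, 8.08 to 8.46 in PBS brains and 7.59 to 8.0 in BAL17 brains of day 28. No choroid gene was called without BAL17 replicate 3, 4 or 5, and 1 or 2 were without BAL17 replicate 1 or BAL17VII replicate 3, 4 or 5. No sterol gene was called without BAL17VII replicate 3 or BAL17 replicate 3, 4 or 5, and 1 was without BAL17VII replicate 5 or BAL17 replicate 2, but 9 were without BAL17VII replicate 4 and 8 without replicate 2.

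**Figure D4:**
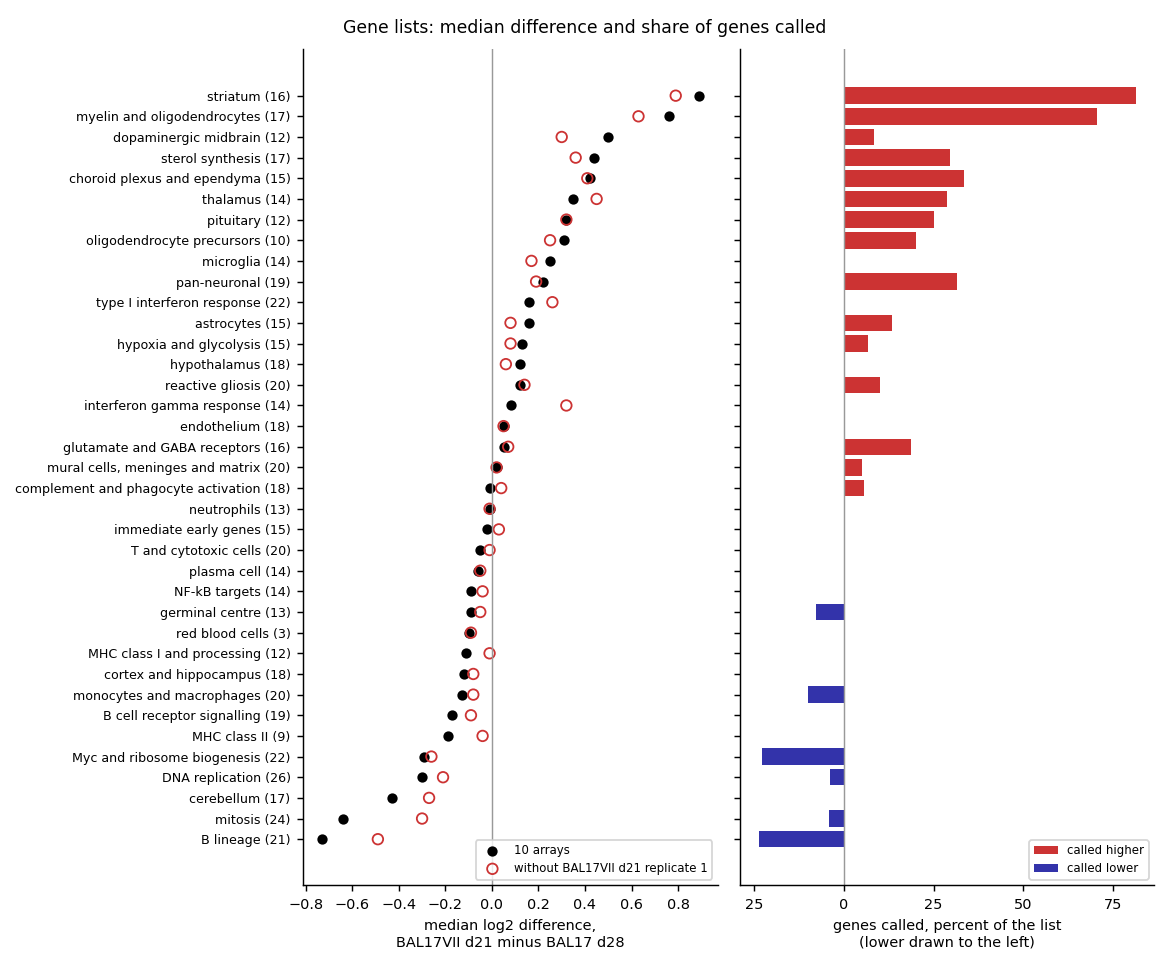
For 37 gene lists (number of genes on the array in brackets), the left panel gives the median log2 difference with 10 arrays (filled) and without BAL17VII replicate 1 (open), and the right panel the percent of genes called higher (red) or lower (blue) with 10 arrays. Striatum, with 13 of 16 genes, and myelin, with 12 of 17, have the longest red bars, and B lineage and mitosis have the lowest medians.

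Immune genes showed few differences by the test. None of 9 MHC class II genes was called, with a median of -0.19, and -0.04 without replicate 1. The list mean was 6.15, 7.83, 7.58, 7.04 and 7.41 against 7.87, 7.42, 7.69, 7.25 and 7.35. The groups overlapped, though BAL17VII replicates 1 and 4 lay below every BAL17 brain. There was no call among 12 genes of MHC class I and processing, 22 of the type I interferon response, 14 of the interferon gamma response, 14 NF-kB targets, 20 of T and cytotoxic cells, 13 of neutrophils and 14 of microglia. The type I interferon list had a median of 0.16 with 17 of 22 differences positive, and without replicate 1 Oasl2, an antiviral gene, was called at 0.83 ± 0.19 (adjusted p 0.041). Microglia genes had a median of 0.25 with 13 of 14 differences positive. Among these Tmem119, a microglia surface gene, differed by 0.36 ± 0.09 (adjusted p 0.0585) and Csf1r, the receptor gene for their growth factor, by 0.43 ± 0.13 (adjusted p 0.0855). A p that misses the threshold does not show that these genes were alike.

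Of 20 genes of monocytes and macrophages 2 were called lower, Mrc1, the mannose receptor gene, at -0.44 ± 0.1 (adjusted p 0.0327) and Gpnmb, a gene of lipid-laden macrophages, at -0.41 ± 0.09 (adjusted p 0.0321). The list median was -0.13. Mrc1 was at 6.65, 6.66, 6.89, 6.64 and 6.88 against 7.43, 7.29, 7.03, 7.09 and 7.09, without overlap, and the cultured lines had 5.97 for BAL17VII and 5.95 for BAL17. Without replicate 1 the adjusted p values were 0.0572 and 0.056, and both calls were also lost without BAL17VII replicate 3 or BAL17 replicate 2, 3, 4 or 5, with all 20 brains in the fit (adjusted p 0.128 and 0.0993) and with all 32 arrays (0.12 and 0.0879). Mrc1 was not called after median centring either (adjusted p 0.0596). Lpl, which encodes lipoprotein lipase, was the single call of 18 genes of complement and phagocyte activation. It was at 8.14, 7.9, 8.07, 7.88 and 7.98 against 7.35, 7.59, 7.16, 6.8 and 7.24 and rose by 0.76 ± 0.12 (adjusted p 0.0106), with the call kept without each array in turn. Endothelial, immediate early and red cell genes had no call, the last from 3 of 10 listed genes.

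Differences between the cultured lines were then followed into the brains. Probe sets were taken whose 6 arrays of one line did not overlap the 6 of the other and whose means differed by at least 1. Of 196 higher in cultured BAL17VII, 5 were called higher (2.55%) and 3 lower (1.53%) in BAL17VII brains, with a median of 0.08. Over all probe sets the shares were 1.74% and 0.61%, so both shares of this set lay above them, on few calls. Of 63 lower in cultured BAL17VII, 9 were called lower (14.3%) and 6 higher (9.52%), and the 9 were all among the 39 that were at least 1 unit above PBS brains in cultured BAL17 (23.1%). Without replicate 1 the former set of 196 gave 13 higher and 3 lower calls, with a median of 0.14. Over all probe sets 1.23% were then called higher and 0.514% lower, so its higher calls lay above that share. Of the 138 in it that were at least 1 unit above PBS brains in cultured BAL17VII, 11 were then called higher and 3 lower, with a median of 0.11. With all 10 arrays, 1 of these 138 was called higher (0.725%) and 3 lower (2.17%), with a median of 0.03.

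The MHC class II genes illustrate the size of the gap. H2-Ea, an MHC class II chain, was at 11.11 ± 0.1 (SD, n = 6) in cultured BAL17VII and 5.67 ± 0.11 in cultured BAL17, a difference of 5.45. In the brains it was at 6.46, 10.35, 9.9, 8.85 and 9.78 against 10.72, 9.7, 10.27, 9.38 and 9.42. BAL17 brains thus had levels far above cultured BAL17 cells and above PBS brains (5.85), and the brain difference was -0.83 ± 0.56 (adjusted p 0.442), or -0.18 ± 0.3 (adjusted p 0.839) without replicate 1. H2-Aa differed by 4.43 between the lines and -0.62 ± 0.51 between the brains (adjusted p 0.534), and Cd74, the invariant chain gene, by 4.06 and -0.55 ± 0.47 (adjusted p 0.554). Dock10, a guanine nucleotide exchange factor gene, was 5.03 higher in cultured BAL17VII and was called higher in the brains, at 9.35, 9.12, 9.21, 8.97 and 9.1 against 8.28, 8.38, 8.18, 8.22 and 8.3. Its rise was 0.88 ± 0.08 (adjusted p 0.000453), or 0.83 ± 0.08 without replicate 1, but PBS brains, without lymphoma, already had 8.97. Il7r, the interleukin 7 receptor gene, was 2.11 lower in cultured BAL17VII and fell in the brains by 0.83 ± 0.14 (adjusted p 0.0144), with no overlap. That call was lost without BAL17 replicate 3 or 4 (adjusted p up to 0.0543).

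**Figure D5:**
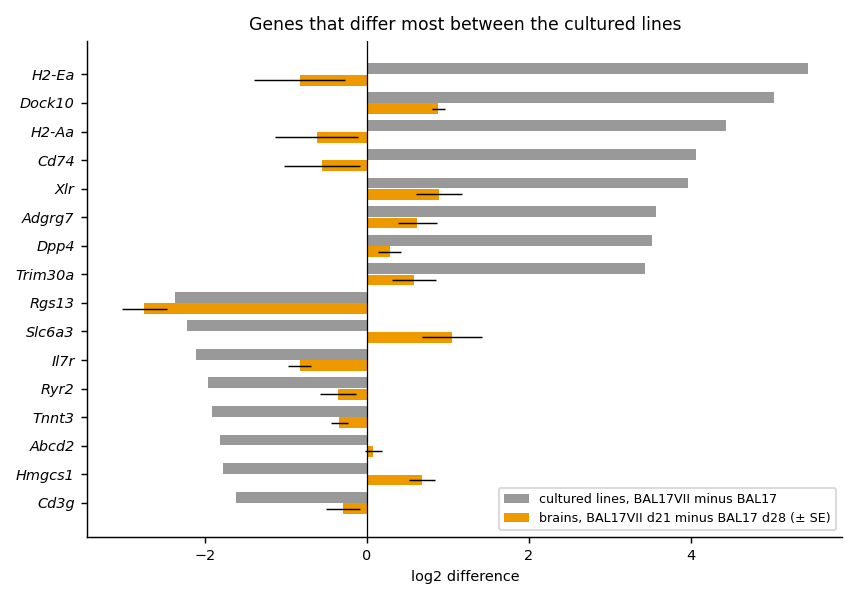
For the 8 genes most higher and the 8 most lower in cultured BAL17VII, grey bars give the log2 difference between the cultured lines and orange bars, with SE, that between BAL17VII brains of day 21 and BAL17 brains of day 28. The cultured difference of 5.45 for H2-Ea stands beside -0.83 in the brains, while Rgs13 is low in both, at -2.37 and -2.75.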

How the data were processed

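Total RNA was measured on Affymetrix arrays. The deposited values are intensities. Per the submitters' processing notes, the authors used Affymetrix Expression Console and RMA, with no version named. They stand on a linear scale, so log2 was taken. Which arrays were normalized together is not given in the sources used here, and RMA gives no detection call, so low levels are compressed. Median intensity per array was 81.7 to 93.0. Depth in reads does not apply, and the number of arrays limits the precision.

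Of 35556 probe sets, 21789 carried 1 symbol and were tested without a filter, 1621 several and 12146 none; the latter groups were not analysed here. Of the tested ones, 21698 matched the GRCm38.p6 gene table. The tested probe sets stand for 19938 genes. For gene lists, fixed genes and shares over all genes, each gene was taken at its probe set of highest mean level. The leading genes were taken at their called probe set of largest difference without overlap. Genes most different between the cultured lines were taken at their probe set of largest difference there. Groups came from the titles. limma 3.58.1 in R 4.3.3 fitted group means to the 10 arrays (lmFit, eBayes), two-sided, with Benjamini-Hochberg adjustment over all 21789, and again without BAL17VII replicate 1. The procedure was tested on simulated data. Tables used Python 3.11.15 with pandas 2.3.3 and numpy 2.4.6, and figures matplotlib 3.10.9.

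The comparison, the 37 lists and the 46 fixed genes were chosen with earlier results of these data known. Genes named were drawn from the 12 largest called differences without overlap in each direction of each fit and from the fixed genes. Also drawn on were up to 4 members of a list with the smallest adjusted p. The 8 genes per direction that differ most between the cultured lines were another source. Not every gene of these sources is described, and Kcnma1 and Hmcn1 of the 9-array fit are among those left out. Some other called list members are named to account for counts. Alternatives were other arrays in the fit, each array left out, the replicate block, filters at the array median and percentile 75 on 5 arrays, 1 probe set per gene, quantile normalization, median centring, trended and robust moderation, array and group weights and a threshold of 0.01. Added after seeing the data were these alternatives on 9 arrays and a pituitary covariate.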

Additional observations from a re-analysis of the deposited data

Results flagged for a closer look

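Values of a group were checked for a brain far from the other 4, measured as its gap to the nearest divided by the group's range, against a critical value of 0.71. Of 246 groups of values checked, 16 gaps exceeded it, and chance gives about 1 in 20. Of these, 7 were low values in BAL17VII replicate 1, the brain at the PBS level for lymphoma genes: Ms4a1 (0.757), Fcmr (0.817), Pou2af1 (0.739), Btk (0.786), Mki67 (0.843), the mitosis list mean (0.711) and the germinal centre list mean (0.74). The same brain was the highest for Mog (0.842). For Prl the low brain was BAL17VII replicate 4 (0.839). Among BAL17 brains of day 28, replicate 4 was low for Adamts9 (0.918), Ppat (0.763) and Tmem119 (0.724). Replicate 1 of that group was high for Fcmr (0.73) and the mitosis list mean (0.777), replicate 3 for Ndc80 (0.712), and replicate 2 for the mean of oligodendrocyte precursor genes (0.75).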

How the results depend on the processing

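The 512 calls rose to 977 with all 32 arrays in the fit and to 1348 with array weights, and fell to 29 at an adjusted p under 0.01. With the mean of Prl, Gh and Tshb as a covariate, chosen after seeing the data and high in 4 of the 5 BAL17VII brains but in no BAL17 brain, 6 were called, 1 higher and 5 lower. Leaving out 1 brain at a time gave 70 to 1034 calls. Deviations of same-numbered brains correlated at -0.07 to 0.29, and only replicate 4 correlated best with its own number. Such correlations cannot show whether the numbers pair the brains, and the sample titles do not say. The replicate block gave 813 calls, and 443 of the 512 were among them. Under the block Prelid2, Gpnmb, Mrc1, Gfap, Ptprz1, Plekhg1, Calb2, Ret and Sostdc1 were not called (adjusted p 0.0503 to 0.0677). The other alternatives, among them all 20 brains (724), quantile normalization (530) and median centring (540), stayed within 1.5 times. Without BAL17VII replicate 1, the 381 calls became 210 with all brains in the fit, 783 with array weights, 34 at an adjusted p under 0.01 and 53 to 506 with a further brain left out; the block gave 415. The cause of these shifts was not tested. Directions of genes named with a value were compared only in the alternatives to the 512 calls, the pituitary covariate excepted. None was reversed there. Directions were not compared under that covariate or in the further alternatives to the 381 calls. With 5 brains a group, many calls depended on single brains of either group. The part that the wider spread in BAL17VII brains had in this was not tested.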
